A study of Rattus norvegicus with 15 samples.

Results

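The genes described here encode the 2 receptors for glucocorticoids, Nr3c1 and Nr3c2, the enzymes Hsd11b1 and Hsd11b2, and the hormone-induced genes Fkbp5, Tsc22d3, Sgk and Klf9. Every probe of the array annotation that carries 1 of these 8 gene names was taken, which gave 15 of the 41012 probes, and all 15 were among the 27625 probes tested. RNA was measured in the olfactory epithelium of Brown Norway rats aged 6 weeks, 4 males (rats 1, 2, 5 and 6) and 4 females (rats 3, 4, 7 and 8), with no treatment given in the labels. Both nostrils, named A and B, were hybridized for 7 rats and nostril A alone for rat 1, which gave 15 one-color arrays. The animals came from a pair of suppliers, were kept in one animal house, and were killed under ketamine anesthesia by decapitation. Since no label links a rat to its supplier, rats 1 to 4 and rats 5 to 8 were compared as numbered sets, each with 2 males and 2 females.

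Glucocorticoids are steroid hormones of the adrenal cortex that rise with stress and with the daily rhythm. They cross the cell membrane and bind the glucocorticoid receptor (Nr3c1) or, with higher affinity, the mineralocorticoid receptor (Nr3c2), which then move to the nucleus and act on DNA. Hsd11b1 regenerates active corticosterone from its inactive form inside the cell, and Hsd11b2 inactivates it. Fkbp5 encodes FKBP51, a co-chaperone that lowers the affinity of the receptor for its hormone and is itself induced by it. Tsc22d3 (also known as GILZ), Sgk (the serum and glucocorticoid regulated kinase, now named Sgk1) and Klf9 (a transcription factor) are induced in many tissues.

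Levels are given as the log2 of the processed signal divided by the median of the array, so that 1 unit is a doubling, and the nostrils of a rat were averaged. Probes differ in how well they hybridize, and no level is set against that of another probe. The sequences below are those of the probes on which the comparison of males and females turned, with all probes of the same genes, because probes of 1 gene gave different results. Positions are those of the array annotation, build rn3, which does not state exons or untranslated regions. Each sequence is the sense strand, 5′ to 3′ and for 4 of the 6 probes the first 30 bases are shown.
Tsc22d3 A_44_P346807, chrX:128411310-128411369, minus strand, whole probe: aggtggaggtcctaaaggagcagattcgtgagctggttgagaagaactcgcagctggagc
Tsc22d3 A_42_P822638, chrX:128409997-128410056, minus strand: atggagtcctgtggtagacaagaagagtaa
Sgk A_44_P313542, chr1:23504663-23504722, minus strand: acttgcaggacactacaatgtgggacattg
Fkbp5 A_43_P18969, chr20:6647588-6647647, minus strand, whole probe: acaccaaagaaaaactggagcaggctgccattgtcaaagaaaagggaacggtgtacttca
Fkbp5 A_44_P519167, chr20:6638510-6638569, minus strand: gggcaaatcttaagtagttttggagttgga
Fkbp5 A_44_P532249, chr20:6637827-6637886, minus strand: gagtggtgggtaagcagatgacattgaaat
The Tsc22d3 gene lies on the X chromosome. All 3 Fkbp5 probes lie on chromosome 20, A_43_P18969 furthest from the 3′ end of the transcript.

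RefSeq promoter windows on build GRCr8, from 250 bases before to 50 after a transcript start, were found for 5 of the 8 genes, with 10 windows in all. They were searched because every female exceeded every male for both Tsc22d3 and Sgk. The receptor's binding element was searched as AGAACA followed after 3 bases by TGTTCT, which reads the same on both strands, and its half-site as AGAACA on either strand. The full element holds the half-site. Neither was found in any of the 10 windows. Over all 33469 windows of this length 20.7% held the half-site, 0.0149% the full element, and 0.215% the full element with at most 1 mismatch. These letters are absent from these windows, and the receptor also binds far from transcript starts. The motif TATAAA, found in 8.8% of all windows on the strand of the gene, was present in 1 of the Tsc22d3 windows and in 2 of the Sgk1 windows. The bases upstream of 1 start of each gene are printed with TATAAA in capitals.
Tsc22d3 promoter, GRCr8 chrX:109010035-109010284, minus strand: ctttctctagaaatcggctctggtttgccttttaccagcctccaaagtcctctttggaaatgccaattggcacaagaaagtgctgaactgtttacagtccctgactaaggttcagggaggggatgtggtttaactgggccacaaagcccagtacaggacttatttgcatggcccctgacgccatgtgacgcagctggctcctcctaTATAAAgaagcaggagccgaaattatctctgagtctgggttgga
Sgk1 promoter, GRCr8 chr1:24807232-24807481, minus strand: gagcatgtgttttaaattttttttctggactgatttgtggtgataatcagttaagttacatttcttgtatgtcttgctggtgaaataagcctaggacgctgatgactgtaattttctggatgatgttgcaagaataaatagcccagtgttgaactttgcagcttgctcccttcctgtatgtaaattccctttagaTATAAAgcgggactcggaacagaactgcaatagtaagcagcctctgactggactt

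Array medians ranged from 57.4 to 83.4 intensity units, and 26233 to 28741 probes per array were well above background. Markers of olfactory neurons (7 probes, Omp and Cnga2 among them) and of sustentacular cells, the supporting cells of the epithelium (6 probes, Cyp2g1 and Cyp2a3a among them), were well above background on all 15 arrays. The arrays lay on 4 slides. Slide 1 held rats 1 and 2 and nostril A of rat 3, slide 2 held nostril B of rat 3 and both nostrils of rat 4, males 5 and 6 were on slide 3, and the arrays of females 7 and 8 made up slide 4. Slide and set of rats cannot be told apart, and males and females shared slide 1 only. P-values measure the spread between 4 rats a group, in whole epithelium, where fewer cells of a type and less RNA per cell cannot be told apart.

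**Figure D1:**
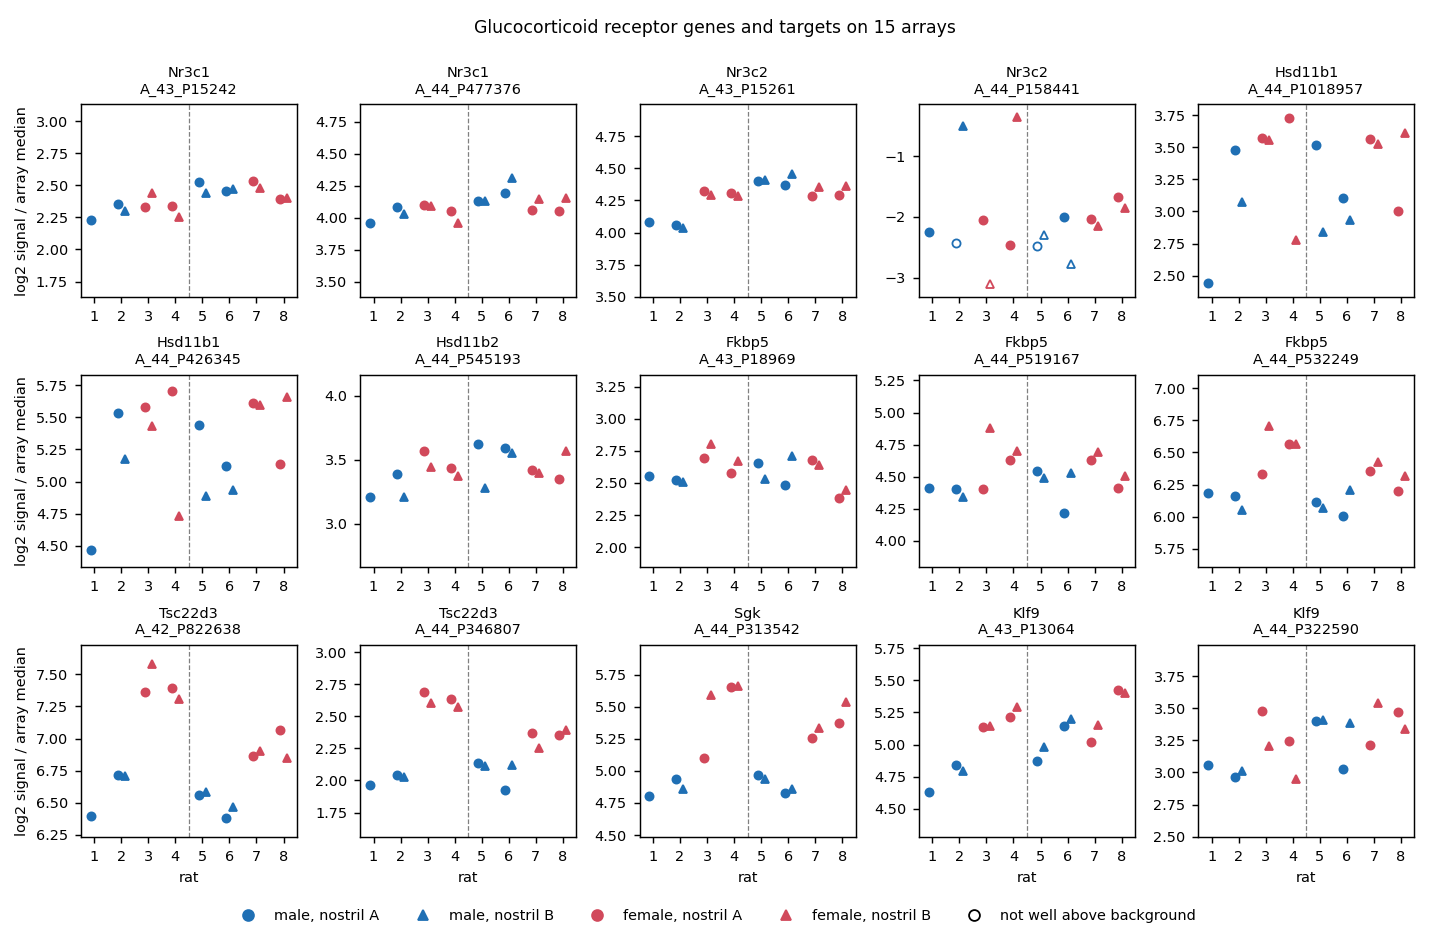
Level of each of the 15 probes on each array (y axis, log2 of signal over array median) for rats 1 to 8 (x axis), with males in blue, females in red, nostril A as circles, nostril B as triangles, and open symbols not well above background. The panels differ in range. Females lie above males for both Tsc22d3 probes and Sgk, whose 7 male arrays reach at most 6.72, 2.14 and 4.97, and among the probes well above background on all 15 arrays the nostrils of 1 rat differ most for Hsd11b1.

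Nr3c1 was detected by both of its probes on all 15 arrays. With probe A_43_P15242 its level was 2.23, 2.33, 2.39 and 2.30 in rats 1 to 4 and 2.48, 2.46, 2.51 and 2.39 in rats 5 to 8. The sets did not overlap, but their nearest rats, 3 and 8, were at 2.385 and 2.395. The difference was 0.15 (SE 0.066, 95% interval 0.0051 to 0.30), with an adjusted p of 0.248 by limma. With probe A_44_P477376 the level was 3.96, 4.06, 4.10 and 4.01 in rats 1 to 4 and 4.13, 4.25, 4.11 and 4.10 in rats 5 to 8, again without overlap and with the nearest rats at 4.096 and 4.101. The difference was 0.12 (SE 0.063, adjusted p by limma 0.332), and 0.053 with normexp background correction and quantile normalization. Males and females overlapped for both probes. Females minus males gave 0.021 (95% interval -0.16 to 0.20) and -0.023 (95% interval -0.18 to 0.14), and the sign of each turned under some alternatives.

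Nr3c2 was measured by probes that gave different pictures. Probe A_43_P15261 read 4.08 and 4.05 in males 1 and 2, 4.31 and 4.30 in females 3 and 4, 4.41 and 4.41 in males 5 and 6, and 4.32 and 4.33 in females 7 and 8. Rats 5 to 8 were all higher than rats 1 to 4, by 0.18 (SE 0.077, 95% interval 0.011 to 0.35), with an adjusted p of 0.235 by limma. Most of the difference was between males, 0.34, against 0.021 between females. The test of that contrast (set by sex interaction) gave an unadjusted p of 0.0041 and an adjusted p of 0.307 by limma, and no tested probe of the array passed 1% in it (2941 had an unadjusted p under 0.05). Probe A_44_P158441 was well above background on 10 arrays, 3 of 7 male and 7 of 8 female, and ranged from -3.11 to -0.36. Its nostrils differed by as much as 2.11 within rat 4, and neither comparison can be read from it.

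Of the enzymes, Hsd11b1 varied more between nostrils than any other gene described here that was detected on all arrays. Its probe A_44_P426345 read 4.46, 5.35, 5.17 and 5.03 in males 1, 2, 5 and 6 and 5.51, 5.22, 5.61 and 5.40 in females 3, 4, 7 and 8. The females averaged 0.43 higher (SE 0.17, 95% interval 0.042 to 0.82, adjusted p by limma 0.247), with male 2 above female 4. Probe A_44_P1018957 gave 0.44 (SE 0.17, adjusted p by limma 0.232), and its levels followed those of the other probe closely (Pearson's r 0.988 over 8 rats, a description). Without rat 1, the lowest male, these sex differences were 0.25 and 0.26. Within female 4 probe A_44_P426345 read 5.70 in nostril A and 4.73 in nostril B, a gap of 0.97 on 1 slide. Within male 5 the nostrils read 5.44 and 4.89, and within female 7 they read 5.61 and 5.60. The difference between rat sets was 0.16 (SE 0.21) and turned to -0.059 without rat 1, the lowest animal. Hsd11b2, the inactivating enzyme, had a narrower range, from 3.21 in rat 1 to 3.57 in rat 6. It differed by 0.12 between rat sets (SE 0.079, adjusted p by limma 0.433) and by 0.061 between the sexes (SE 0.084, adjusted p by limma 0.747). Without rat 1 these values were 0.070 and 0.0036.

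None of the 15 probes passed 1% or 5% between males and females by limma, against 0.0434% of all tested probes at 1% and 0.0724% at 5%. The test that the study's methods name, run here with equal variance and the same adjustment, also gave 0 of 15 at 1%. At an unadjusted p under 0.05 there were 8 of 15, against 17.1% of all tested probes. The levels of 14 of 15 were on average higher in females, against 52.1% of all tested probes, and the median difference was 0.19 against 0.0092. The 14 include Nr3c2 A_44_P158441, which was near background, and Nr3c1 A_43_P15242 at 0.021. With 75th percentile scaling 13 of 15 were higher, against 45.7% of all tested probes, and with normexp and quantile normalization 13 of 15, against 50.3%. In 4 probes, of Sgk, Tsc22d3 and Fkbp5, every female lay above every male. Among all tested probes 8.82% had females wholly above males and 2.52% had them wholly below. The probes of 1 gene share a transcript and are not independent.

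Sgk had the lowest p of the 15 probes and was at rank 28 of all tested. Its level was 4.81, 4.90, 4.95 and 4.84 in males 1, 2, 5 and 6, which is 4.87 ± 0.064 (SD, n = 4). It was 5.34, 5.66, 5.29 and 5.46 in females 3, 4, 7 and 8, which is 5.44 ± 0.16 (SD, n = 4). The lowest female exceeded the highest male. Females minus males was 0.56 (SE 0.083, 95% interval 0.38 to 0.75), a ratio of 1.48, with an adjusted p of 0.0611 by limma. On slide 1, where the sexes met, female 3 read 5.10 in nostril A and the 3 male arrays 4.81 to 4.94, whereas nostril B of female 3, on slide 2, read 5.59. The 2 rat sets differed by -0.041 (SE 0.20), and this value turned in sign when rat 3, 4, 5 or 6 was left out.

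Tsc22d3, an inhibitor of inflammatory transcription factors, was seen by a bright and a dimmer probe, and both separated the sexes. The bright probe A_42_P822638 read 6.39, 6.71, 6.57 and 6.42 in males 1, 2, 5 and 6 and 7.47, 7.35, 6.88 and 6.96 in females 3, 4, 7 and 8. The difference was 0.64 (SE 0.14, 95% interval 0.33 to 0.95), a ratio of 1.56, with an adjusted p of 0.104 by limma. The dimmer probe A_44_P346807 read 1.96, 2.03, 2.12 and 2.02 in the males and 2.65, 2.61, 2.31 and 2.37 in the females. Its difference was 0.45 (SE 0.091, 95% interval 0.24 to 0.65), a ratio of 1.36, with an adjusted p of 0.0982 by limma, and was 0.29 with normexp and quantile normalization. With both probes females 3 and 4 were the highest animals. Between females, rats 7 and 8 were lower than rats 3 and 4 by 0.50 with the bright probe and by 0.28 with the dimmer one, while between males the rat sets differed by -0.056 and 0.076. The tests of that contrast had unadjusted p-values of 0.0273 and 0.0117 and adjusted p-values of 0.420 and 0.365 by limma. On slide 1 nostril A of female 3 read 7.37 with the bright probe and the 3 male arrays 6.39 to 6.72. The dimmer probe read 2.69 in that female array and 1.96 to 2.04 in the males.

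Fkbp5 was measured by 3 probes along the transcript. Probe A_44_P532249, nearest to the 3′ end, read 6.18, 6.11, 6.09 and 6.11 in males 1, 2, 5 and 6 and 6.52, 6.57, 6.39 and 6.26 in females 3, 4, 7 and 8, without overlap. The difference was 0.31 (SE 0.072, 95% interval 0.15 to 0.48), a ratio of 1.24, with an adjusted p of 0.109 by limma. Probe A_44_P519167 gave 0.19 (SE 0.068, adjusted p by limma 0.209) and A_43_P18969, the most distant, 0.046 (SE 0.081, 95% interval -0.13 to 0.23, adjusted p by limma 0.806). The interval of the most distant probe reaches into those of the other probes, and the difference between the probes was not tested. Between rat sets the differences were -0.13, -0.021 and -0.046 for the same probes, with adjusted p-values of at least 0.551 by limma. The first was -0.21 without rat 2 and -0.059 without rat 4.

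Klf9 did not separate the sexes. Probe A_43_P13064 read 4.63, 4.82, 4.93 and 5.17 in males 1, 2, 5 and 6 and 5.14, 5.25, 5.09 and 5.42 in females 3, 4, 7 and 8, and male 6 was above females 3 and 7. Females averaged 0.34 higher (SE 0.12, 95% interval 0.075 to 0.60, adjusted p by limma 0.194). Probe A_44_P322590 gave 0.14 between the sexes (SE 0.11, adjusted p by limma 0.521), which was 0.084 without rat 2, 0.22 without rat 5, 0.089 with normexp and 0.47 on slide 1 alone. It had the largest positive difference of the 15 probes between rat sets, 0.23 (SE 0.090, 95% interval 0.025 to 0.43, adjusted p by limma 0.213), with levels of 3.06, 2.99, 3.35 and 3.10 in rats 1 to 4 and 3.40, 3.21, 3.38 and 3.40 in rats 5 to 8.

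**Figure D2:**
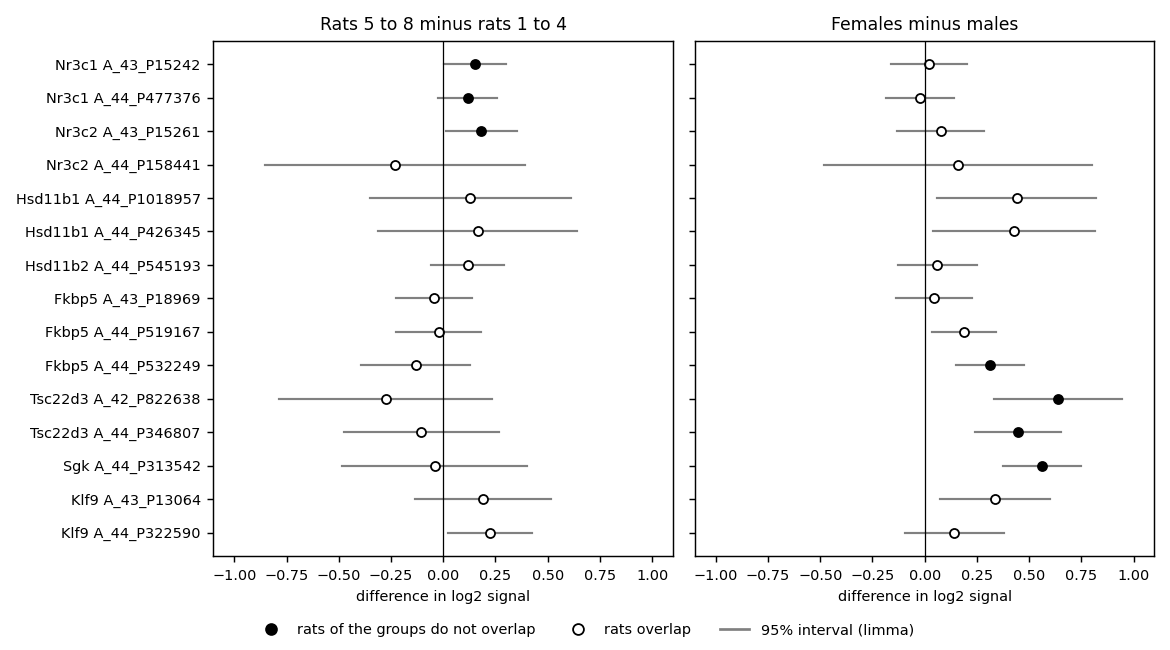
Difference in log2 signal (x axis) of each probe between rat sets (left) and between the sexes (right), with the 95% interval from limma as a line and filled points where the rats of the groups do not overlap. The filled points on the right, for Fkbp5, both Tsc22d3 probes and Sgk, lie at 0.31, 0.64, 0.45 and 0.56, and those on the left at 0.15, 0.12 and 0.18.

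Between rat sets none of the 15 probes passed 1% or 5% by limma, against 0.0181% and 0.786% of all tested probes, and the methods' test, run in the same form as above, also gave 0 at 1%. Unadjusted, 3 of 15 had a p under 0.05, against 19.1% of all tested probes. The sets did not overlap for 3 of 15, both Nr3c1 probes and Nr3c2 A_43_P15261, all higher in rats 5 to 8, against 6.75% of all tested probes higher in that way and 4.6% lower. The unadjusted share was close to that of all probes. Of the 15, 8 were on average higher and 7 lower, with a range from -0.28 for Tsc22d3 A_42_P822638 to 0.23 for Klf9 A_44_P322590. The Tsc22d3 value was -0.47 without rat 1 and -0.11 without rat 3.

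Slides and the levels of cell type markers differed between these groups. The sexes met on slide 1 only, in nostril A of female 3 and the 3 arrays of males 1 and 2. With slide as a fixed block, which sets that 1 female array against 3 arrays of 2 males and so tests no difference between groups of rats, the Tsc22d3 probes gave 0.76 and 0.68 and Sgk 0.23. Fkbp5 gave 0.20 with A_44_P532249 and 0.019 with A_44_P519167. Of the 6 sustentacular probes 5 averaged higher in females and 3 had females wholly above males, against 52.1% and 8.82% of all tested probes. The mean of this marker list was 8.58 to 8.69 in males and 8.68 to 8.82 in females. Of the 7 olfactory neuron probes 6 averaged higher in females, with a median difference of 0.028. Unadjusted p by limma was under 0.05 for 2, both of Gnal, at differences of 0.19 and 0.27, against 17.1% of all tested probes. None of the 7 separated the sexes, and the list mean was 7.163 to 7.328 in males and 7.196 to 7.411 in females. The 3 blood probes, hemoglobin Hbb among them, were lower in females by a median of 1.94, and the list mean ran from 5.34 to 7.91 in males and from 4.03 to 7.07 in females. The leukocyte list ran from 0.95 to 1.25 in males and from 0.71 to 0.98 in females. Bone (6 probes) averaged 7.93 to 8.70 in rats 1 to 4 and 8.70 to 9.35 in rats 5 to 8, and basal cells (3 probes) 1.74 to 2.26 and 2.26 to 2.59. Of the 2 skeletal muscle probes, Mb read 0.17 to 0.44 in rats 1 to 4 and 0.55 to 1.79 in rats 5 to 8. The other, Tnnt3, was well above background on 4 of 7 arrays of rats 1 to 4 and on all 8 of rats 5 to 8. It met the limit of 7 arrays through rats 5 to 8 alone, and no list mean is given. The part of these cell types in the differences was not tested.

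The partners of the receptor were measured by a list of chaperones and immunophilins, the proteins that hold the receptor in a state able to bind hormone. Of its 23 tested probes 0 passed 1% or 5% by limma in either comparison, with 4 at an unadjusted p under 0.05 in each, against 19.1% of all tested probes between rat sets and 17.1% between the sexes. Fkbp4, the immunophilin that opposes FKBP51, differed between rat sets by 0.051, 0.22 and 0.25 over its 3 probes (SE 0.061, 0.082 and 0.11). Females were on average higher for 8 of the 23 probes, against 52.1% of all tested probes. Among the 26 probes of coregulators, which the bound receptor recruits, 1 passed 5% between rat sets, the coactivator Ppargc1a, a regulator of mitochondrial biogenesis, at -0.66 (SE 0.11, adjusted p by limma 0.0369), against 0.786% of all tested probes. At an unadjusted p under 0.05 there were 6 of the 26 between rat sets and 2 between the sexes, against 19.1% and 17.1%, and 5 and 3 did not overlap, against 11.3% in both. Ppargc1a was named after its value was seen.

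Most genes of steroid supply were not detected often enough to be tested. Only 6 of 21 probes were, and those for the adrenal enzymes Cyp11a1, Cyp11b1, Cyp11b2, Cyp17a1 and Cyp21a1 and for Serpina6, the corticosteroid-binding globulin, were not among them. H6pd, which feeds cofactor to Hsd11b1, read from -0.73 to -0.47 over the 8 rats and differed by 0.0017 between the sexes (SE 0.10) and by -0.063 between rat sets (SE 0.098). None of these 6 probes passed 5% in either comparison by limma; unadjusted p was under 0.05 for 1 between rat sets and 0 between the sexes, against 19.1% and 17.1% of all tested probes.

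Other genes that glucocorticoids induce were tested with 33 probes of 23 genes, and 0 passed 1% or 5% by limma in either comparison. Unadjusted, 8 had a p under 0.05 between rat sets and 7 between the sexes, against 19.1% and 17.1% of all tested probes. In 6 of the 33 (18.2%) every female exceeded every male, and in 0 every female was below, against 8.82% and 2.52% of all tested probes. These 6 belong to Per1 and to Klf15, Bcl6, Glul and Lpin1 (2 probes), which apart from Per1 were named after their values were seen. Per1, a clock gene that glucocorticoids also induce, read 3.00, 3.06, 3.60 and 3.59 in males 1, 2, 5 and 6 and 3.84, 3.98, 3.77 and 3.99 in females 3, 4, 7 and 8. Its difference was 0.58 (SE 0.15, adjusted p by limma 0.118). Klf15, a transcription factor of amino acid metabolism, differed by 0.38 (SE 0.13, adjusted p by limma 0.182), and Glul, the glutamine synthetase, by 0.34 with 1 probe (SE 0.082, adjusted p by limma 0.109) and by -0.11 and 0.12 with the other 2. Not all induced genes had this pattern. The phosphatase Dusp1 differed between the sexes by 0.088 (SE 0.11, adjusted p by limma 0.731) and Cebpd by -0.057 (SE 0.19, adjusted p by limma 0.908). Both probes of Zbtb16 were detected on too few arrays to be tested. The median of the list was 0.075 between the sexes and 0.043 between rat sets, against 0.0092 and 0.017 for all tested probes.

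Sodium transport genes that the mineralocorticoid receptor regulates, 12 probes with the epithelial channel subunits Scnn1a, Scnn1b and Scnn1g among them, gave 0 at 1% or 5% by limma in either comparison, with 5 at an unadjusted p under 0.05 between rat sets and 2 between the sexes, against 19.1% and 17.1% of all tested probes. Inflammatory genes that glucocorticoids repress gave 2 of 11 probes past 5% between rat sets and 0 between the sexes by limma, against 0.786% and 0.0724% of all tested probes. Between the sexes 1 of the 11 had an unadjusted p under 0.05. The 2 past 5% were the neutrophil chemokines Cxcl1 and Cxcl2, named after their values were seen. This list too was chosen with earlier results of these data known, so its count is a description and no test. Cxcl1 read 0.75, 1.34, 2.08 and 1.05 in rats 1 to 4 and -0.34, -0.41, -1.12 and -0.88 in rats 5 to 8, a difference of -1.99 (SE 0.28, adjusted p by limma 0.0277). Cxcl2 was well above background on all 7 arrays of rats 1 to 4 and on 3 of 8 arrays of rats 5 to 8. It met the limit of 7 arrays through rats 1 to 4 alone, so no size or p-value is given, although the 2 include it. All 11 probes of this list were on average lower in females, against 47.9% of all tested probes, with a median difference of -0.24 against 0.0092. All 5 leukocyte marker probes were lower in females too, with a median of -0.30, and their part in this was not tested.

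The clock list was chosen with earlier results of these data known, so its share describes these rats and is no test. Of its 17 probes 11 did not overlap (64.7%, against 11.3% of all tested probes), 8 higher and 3 lower in rats 5 to 8. Dbp, a transcription factor with a strong daily rhythm, was the 1 of 136 tested probes of the pathway lists that passed 1% by limma, against 0.0181% of all tested probes. It read 5.89, 6.00, 5.82 and 5.87 in rats 1 to 4 and 6.78, 6.99, 7.01 and 7.07 in rats 5 to 8, a difference of 1.07 (SE 0.073, adjusted p by limma 0.000492). It did not pass 1% with the ratio table, with no filter on dim probes or with the methods' test. Per3 was higher by 1.08 with probe A_44_P196198 (SE 0.11, adjusted p by limma 0.0125), past 5%. Its probe A_43_P16143 was well above background on 3 of 7 arrays of rats 1 to 4 and on all 8 arrays of rats 5 to 8. That probe met the limit of 7 arrays through rats 5 to 8 alone, so no size or p-value is given, although the 11 include it. Arntl, the activator whose rhythm runs opposite to that of Dbp, was lower by 0.91 on average in rats 5 to 8 (adjusted p by limma 0.0284). Tef and Nr1d1 also passed 5%, both higher. Glucocorticoid levels follow the same daily rhythm, but the hour at which each rat was killed is not given in the sources used here. Between the sexes 1 of the 17 clock probes, that of Per1, did not overlap, against 11.3% of all tested probes. Immediate early genes, which respond to handling within minutes, overlapped in both groupings for all 9 probes, a count too small to be set apart from the 11.3% of all tested probes that did not overlap in each, and their list mean was highest in male 2 at 3.32, against 2.41 to 2.66 in the other rats.

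**Figure D3:**
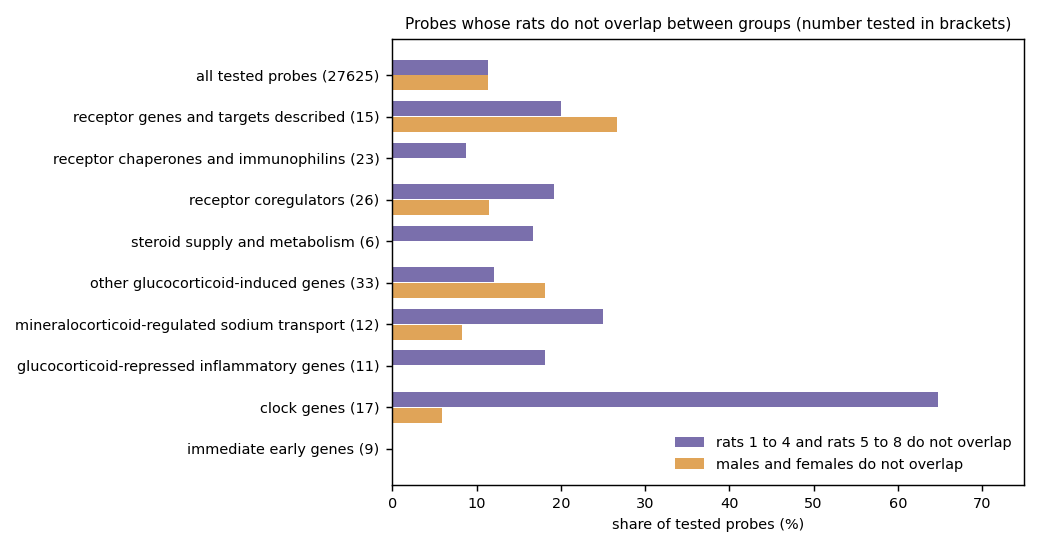
Share of the tested probes of each gene list (x axis, percent) for which the rats of the 2 sets (purple) or of the 2 sexes (orange) did not overlap, with the number of tested probes in brackets. Clock genes reached 64.7% between rat sets and 5.88% between sexes, and the 15 probes of receptor, enzyme and target genes 20% and 26.7%, against 11.3% of all tested probes in both. The genes and lists were chosen with earlier results of these data known.

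Over the 8 rats the SD of the levels was 0.40 for the bright Tsc22d3 probe, and the SD between nostrils 0.090. Over the 15 probes the SD between rats divided by that between nostrils was highest for Klf9 A_43_P13064, at 4.53. It was lowest, at 0.527, for the Nr3c2 probe near background. Rat 1 was measured in 1 nostril, so its levels rest on 1 array and do not enter the SD between nostrils.

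The probes most like each gene over the 8 rats were listed by Pearson's r of the levels. For Sgk they were Dnmt1 (0.974), RGD1563952 (0.972) and BQ781691 (0.968). For Tsc22d3 they were CF109032 (0.991), Insig1 (0.987) and Zc3h7b (0.986), and for Fkbp5 AW918578 (0.995), RGD1311316 (0.994) and RGD1562289 (0.991). Nr3c1 was most like Myh14 (0.985), Alox5 (0.980) and Ramp3 (0.978), and Nr3c2 like RGD1563037 (0.983), Irak1 (0.983) and BF523192 (0.979). Hsd11b1 was most like Gas6 (0.968), CB544885 (0.963) and TC543047 (0.959), Hsd11b2 like XM_343740 (0.988), Pigt (0.982) and TC554773 (0.980), and Klf9 like BF557813 (0.976), Ppfibp2 (0.975) and AW144489 (0.966). With 8 rats and 27625 probes such values are common, since the highest r of a tested probe had a median of 0.983.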

How the data were processed

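RNA of 15 olfactory epithelia was hybridized to one-color Agilent arrays. The authors deposited the scanner intensity of each spot, background-subtracted by Agilent Feature Extraction and not scaled between arrays, and a ratio table that, over 19037 bright probes, equalled signal over array median over probe median within 2%. Outlier spots were left out (61 to 175 per array), spots of a probe averaged, each signal was expressed relative to its array's median, with a floor of 0.1, and log2 was taken. Probes well above background on at least 7 of 15 arrays were tested. The nostrils of a rat were averaged and groups of 4 rats compared with limma 3.58.1 (eBayes with trend; R 4.3.3). Tests were two-sided, and p-values were adjusted over 27625 probes by the Benjamini-Hochberg procedure. The threshold was 1%, and 5% was also counted. Scripts were tested on simulated data. Precision was limited by having 4 rats a group. The members and gene lists were chosen with earlier results of these data known. By rule, all member probes were named, with those of the lists past 1% between rat sets (at most 8 a list) and the tested probes of Per1, Dusp1, Zbtb16, Cebpd, H6pd, Fkbp4, Dbp and Per3. Klf15, Bcl6, Glul, Lpin1, Ppargc1a, Cxcl1, Cxcl2, Tef, Nr1d1, Arntl and genes named as examples of a list were named after their values were seen. The 3 most alike probes were taken for the brightest probe of each gene. Alternatives were other scalings, floors, filters, background correction, the ratio table, the test of the methods (its equal-variance form chosen here), the other factor in the model, arrays as units with slide or rat as a block, and leaving out each rat. Sequences are from the array annotation and RefSeq (GRCr8).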

Additional observations from a re-analysis of the deposited data

Results flagged for a closer look

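In 4 of the 60 groups of 4 rats examined, 1 rat stood apart from the other 3, where chance gives about 1 in 20. Female 4 read 4.008 for Nr3c1 A_44_P477376, with the nearest other female at 4.096. Male 2 read -1.463 for Nr3c2 A_44_P158441, with the nearest other male at -2.253, for a probe well above background on 10 arrays. Female 8 read 4.457 for Fkbp5 A_44_P519167, with the nearest other female at 4.642. Rat 6 read 3.206 for Klf9 A_44_P322590, with the nearest of rats 5, 7 and 8 at 3.378. The gap to the nearest rat was 0.899, 0.853, 0.895 and 0.876 of the range of the group.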

How the results depend on the processing

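Between the sexes the count of the 15 probes past 1% stayed at 0 under other scalings, floors, filters and background correction, the ratio table, the other factor in the model, the methods' test and without any 1 rat. It was 4 with 15 arrays as independent samples (Fkbp5 A_44_P532249, both Tsc22d3 probes and Sgk), 1 with slide as a random block (Tsc22d3 A_44_P346807) and 2 with slide as a fixed block (both Tsc22d3 probes). With rat as a random block, chosen after seeing the data, it was 0, and Sgk had an adjusted p of 0.0155 by limma. Between rat sets it was 0 throughout. Over all probes the count between rat sets was 5, and 4 to 5 without 1 rat, 0 with the ratio table, 14 with sex added, 1151 with arrays independent, 72 with slide as a random block and 223 with rat as a random block. The count between the sexes was 12, and 9 to 10 without 1 rat, 6 with the ratio table, 3 with detection on at least 11 arrays, 46 with rat set added, 1033 with arrays independent, 34 and 648 with slide as a random and as a fixed block, and 21 with rat as a random block. In the pathway lists the count between rat sets was 1 (Dbp), 0 with the ratio table, with no filter and with the methods' test, 3 with sex added, 15 with arrays independent, 5 with slide and 9 with rat as a random block. The cause was not tested. Array fits treat the nostrils of a rat as separate samples, unless rat is the block.

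Signs turned in 24 of 613 values of single probes, all with adjusted p over 0.66 by limma. Between rat sets these came from leaving out 1 rat, with lowest and highest values of -0.10 to 0.27 (Hsd11b1 A_44_P1018957), -0.059 to 0.29 (Hsd11b1 A_44_P426345), -0.077 to 0.0050 (Fkbp5 A_43_P18969), -0.074 to 0.026 (Fkbp5 A_44_P519167), -0.22 to 0.0071 (Tsc22d3 A_44_P346807) and -0.16 to 0.12 (Sgk). Between the sexes Nr3c1 A_43_P15242 was -0.0069 with 75th percentile scaling, -0.013 with normexp and -0.00015 with arrays independent, and -0.028 to 0.057 without 1 rat. Nr3c1 A_44_P477376 was 0.073 with slide as a fixed block and -0.070 to 0.027 without 1 rat. Nr3c2 A_44_P158441 was -0.015 and -0.32 with slide as a random and as a fixed block and -0.022 to 0.38 without 1 rat. Fkbp5 A_43_P18969 was -0.00062 to 0.11 without 1 rat. No paired analysis was possible because the groups compared share no rat number. Signal near background limits Nr3c2 A_44_P158441.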
